A study of Homo sapiens with 12 samples.

Results

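Gene expression in HK-2 cells after 24 h with Aa was compared with that in control cells of the same time. The comparison covers every gene with a probe set, a group of short probes for 1 transcript, whose mean log2 value over the 12 arrays of the series was at least 4. This kept 10791 of 19775 genes, measured on 6 of the 12 arrays. HK-2 is an immortalised line of human kidney proximal tubule epithelium. The 3 Aa arrays came from cells given a low dose of the compound that the labels call Aa, and the 3 control arrays from cells given the control vehicle. The sources used here give neither the dose in figures nor the full name of Aa nor the vehicle. All cells, controls included, were grown in medium with epidermal growth factor, hydrocortisone, insulin, transferrin and selenite, and were treated when nearly confluent. The arrays of 48 h entered the same model, so they also shape the standard errors and p-values at 24 h. They count toward the filter and the choice of probe set as well. Their own effects are used only for the change of the effect with time. The study as a whole looked for expression signatures of kidney toxicity.

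The proximal tubule takes up and concentrates many drugs and toxins from blood and filtrate, which makes its epithelium a frequent target of toxic injury. When a cell meets damage, transcription factors such as p53, NRF2, ATF4 and HSF1 each switch on a set of target genes, and the cell cycle can be held before DNA replication or before mitosis. Genes of G1/S and replication are controlled mainly by E2F factors. Genes of mitosis are transcribed later in the cycle, from promoters that carry the cell-cycle homology region (CHR) and CCAAT boxes.

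HK-2 is 1 line that was immortalised with genes of a papillomavirus, whose products bind p53 and the retinoblastoma protein, so p53 and E2F target genes start from an altered state. Of 12 proximal tubule markers on the array 4 passed the filter (CDH6, GATM, PAX8 and SLC3A1), and the defining markers LRP2, CUBN, AQP1 and SLC34A1 read 2.08 to 3.04 on all 6 arrays, below it. All 9 epithelial markers passed. None of 8 endothelial or 6 leukocyte markers did, and of 8 fibroblast markers DCN, LUM and COL1A1 passed. Replicates are biological per the labels, which do not describe separate cultures, and the p-values therefore reflect only the spread among these samples, which may be technical. In bulk RNA, fewer cells of a type and less RNA per cell cannot be told apart.

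The 6 arrays had medians of 2.93 to 3.01 over all probe sets, and Pearson's r between arrays of a group was 0.994 to 0.997. Aa replicate 2 stood closer to the control arrays (r of 0.989 to 0.992) than Aa replicates 1 and 3 did (0.985 to 0.988). Each gene was taken from its brightest probe set. Differences are Aa minus control on the log2 scale, so that 1 is a doubling, with the standard error (SE) of a limma model and n = 3 arrays per group. A gene is said to have risen or fallen where its p, adjusted by Benjamini-Hochberg over the 10791 genes, was below 0.05. Values per array are given in the order of replicates 1, 2 and 3. The number of arrays limits the precision.

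Aa changed many genes by a moderate amount and a few by a large one. After 24 h, 2494 genes were called (23.1% of those tested), of which 1108 rose (10.3%) and 1386 fell (12.8%). The median change was 0.69 among the genes that rose and -0.74 among those that fell, against -0.02 over all genes tested. A change of at least 2-fold was reached by 267 rises and 411 falls, and one of at least 4-fold by 53 and 62. The 3 Aa arrays lay wholly on one side of the 3 control arrays in 2469 of the called genes, and in 40.5% of all genes tested. Replicates of the same number behaved as pairs, and with the number as a block 4457 genes were called (41.3%), all 2494 among them. In that fit 1992 genes rose (18.5%) and 2465 fell (22.8%), the shares to set beside block counts of gene lists. Without replicate 1 in every group 536 genes were called, and 824 without replicate 3. With the 6 arrays of 24 h alone 2178 genes were called, 2008 of them among the 2494.

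**Figure D1:**
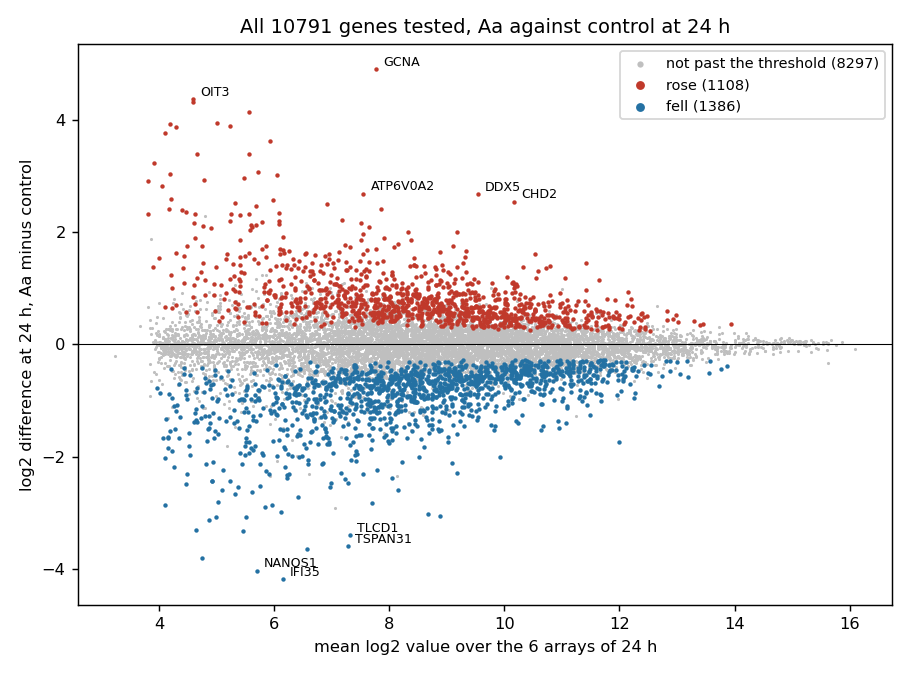
Each point is 1 of the 10791 genes tested, with its mean log2 value over the 6 arrays of 24 h on the x axis and the log2 difference between Aa and control on the y axis. Red points are the 1108 genes that rose and blue points the 1386 that fell; GCNA (4.89) and IFI35 (-4.18) lie farthest from 0.

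The largest movers were taken from called genes whose arrays did not overlap between groups. Among those with a clear signal in both groups, a mean of at least 5 in the lower one, GCNA rose the most. GCNA, named for its protein in germ cell nuclei, read 10.48, 9.98 and 10.20 with Aa and 5.23, 5.88 and 4.88 in controls. The groups were far apart, and the change was 29.6-fold (log2 4.89, SE 0.30, adjusted p = 8.78e-06). DDX5, an RNA helicase of splicing and transcription, read 10.98, 10.71 and 10.92 with Aa against 8.44, 8.05 and 8.13, a rise of 2.67 (SE 0.22, adjusted p = 5.51e-05). Every Aa array was far above every control array. CHD2, a chromatin remodeller, gave 11.68, 11.05 and 11.61 against 8.80, 9.16 and 8.75, a rise of 2.54 (SE 0.20, adjusted p = 3.44e-05). Its probe sets did not all move alike: 1 of 3, a dim one, read -0.12.

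The other large rises with a clear signal covered several functions. CEP78, a centrosome protein, rose by 2.21 (SE 0.22), USP49, a deubiquitinating enzyme, by 2.15 (SE 0.28), and TMEM38A, a cation channel of internal membranes, by 2.14 (SE 0.36). MIR570HG, a host transcript of a microRNA, rose by 2.41 (SE 0.29), KLHDC4 by 2.49 (SE 0.30) and PLEKHA6 by 2.08 (SE 0.26). Among the 15 named rises, STRN, a scaffold of a phosphatase complex (2.00, SE 0.23), LRIG2, a membrane protein (1.99, SE 0.40), and PAPOLG, a poly(A) polymerase (1.97, SE 0.27), each had at least 1 probe set that read lower with Aa, as did CEP78, KLHDC4 and PLEKHA6. Some of these were falls past the threshold: STRN fell by 0.89 and 0.95 on 2 of its 7 probe sets, PAPOLG by 0.81 and PLEKHA6 by 0.74 on 1 each, so no single direction can be given for these genes. RAD18, a ubiquitin ligase that marks PCNA at stalled replication forks, read 8.72, 8.66 and 9.19 with Aa and 6.65, 6.83 and 7.41 in controls. The groups did not overlap (1.89, SE 0.27, adjusted p = 0.00105), but 2 of its 4 probe sets read lower with Aa, and 1 of them fell by 0.91. DSCAML1, an adhesion protein, rose by 1.91 (SE 0.46), and its call was lost without control replicate 3 (adjusted p = 0.053, within a range of 0.000913 to 0.21 over the alternatives).

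**Figure D2:**
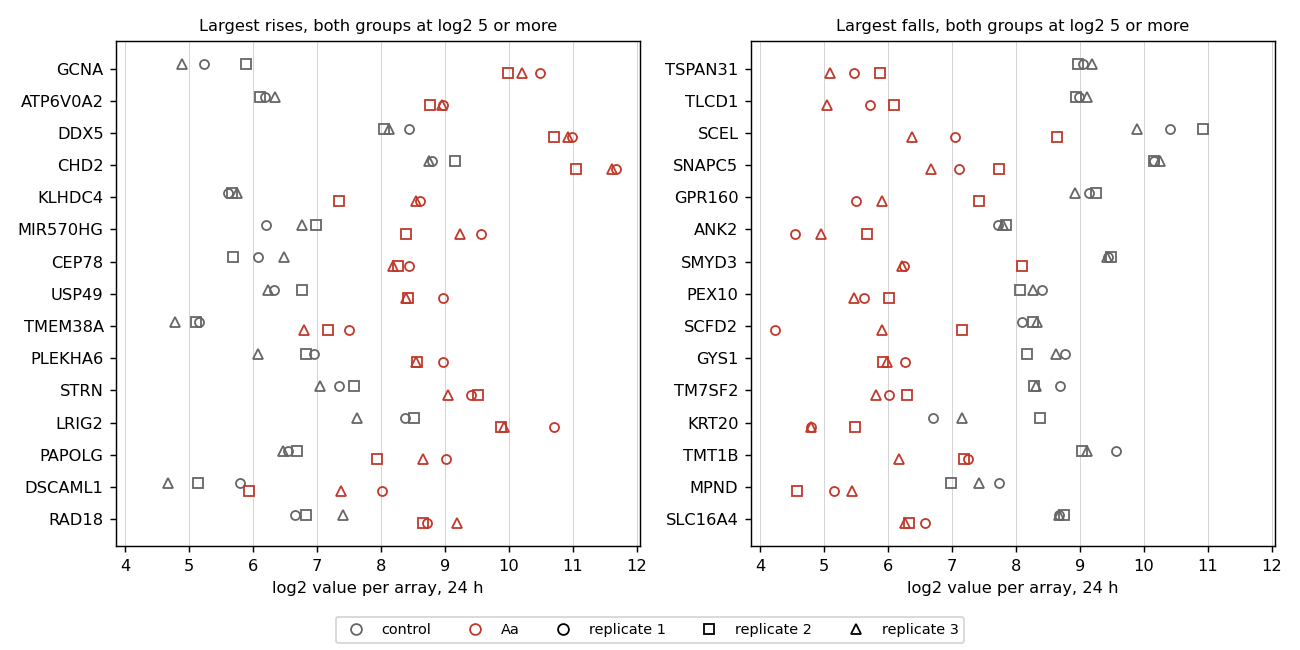
Log2 values on the 6 arrays of 24 h for the 15 largest rises (left) and the 15 largest falls (right) with a clear signal in both groups, 1 gene per line. Grey symbols are control arrays, red symbols Aa arrays, and the shape gives the replicate number. The groups lie apart in all 30 genes because only genes without overlap were eligible, and DSCAML1 has the smallest gap.

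Falls with a clear signal in both groups were led by 2 membrane proteins. TSPAN31, a tetraspanin, read 5.46, 5.88 and 5.09 with Aa against 9.05, 8.97 and 9.19, a fall of 12.1-fold (-3.59, SE 0.41, adjusted p = 0.000283). TLCD1 read 5.71, 6.09 and 5.04 against 8.99, 8.94 and 9.11 (-3.40, SE 0.37, adjusted p = 0.00021). In both genes the control arrays agreed closely and Aa replicate 2 was the highest Aa array. SNAPC5, a subunit of the complex that starts transcription of small nuclear RNA genes, read 7.11, 7.73 and 6.67 with Aa and 10.16, 10.16 and 10.25 in controls. It fell by 3.02 (SE 0.42, adjusted p = 0.000839), again with the Aa arrays more spread than the controls.

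Several of the other large falls were metabolic genes. PEX10, needed to build peroxisomes, fell by 2.54 (SE 0.25), GYS1, the glycogen synthase of muscle and most other tissues, by 2.47 (SE 0.46), and TM7SF2, a sterol reductase of cholesterol synthesis, by 2.39 (SE 0.23). SLC16A4, of the monocarboxylate transporter family, fell by 2.31 (SE 0.18, adjusted p = 3.79e-05), TMT1B, a thiol methyltransferase, by 2.37 (SE 0.27) and MPND by 2.33 (SE 0.24). Calls were less firm for 6 named falls: SCEL, a protein of cornified epithelia (-3.06), GPR160, an orphan receptor (-2.83), ANK2, an ankyrin (-2.72), SMYD3, a methyltransferase (-2.60), SCFD2 (-2.47) and KRT20, a keratin (-2.38). ANK2 lost its call without Aa replicate 1 (adjusted p = 0.0608), and GPR160 without Aa replicate 1 (0.0657) or 3 (0.0571). SCEL lost it without Aa replicate 1 (0.0571), Aa replicate 3 (0.0656) or control replicate 2 (0.0551), and KRT20 without the same arrays (0.0627, 0.061 and 0.0674). SMYD3 and SCFD2 lost it without any 1 array other than Aa replicate 2, with adjusted p of 0.058 to 0.0855 and of 0.0712 to 0.113. Taking every alternative, ANK2 had adjusted p-values between 0.000545 and 0.161, GPR160 between 0.000846 and 0.21, and SCEL between 4.31e-05 and 0.199. Those of KRT20 lay between 0.000406 and 0.155, of SMYD3 between 4.31e-05 and 0.218, and of SCFD2 between 0.00319 and 0.234.

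A further set of genes crossed between a readable and an unreadable level. In 39 of the genes that rose the control mean was below 4, and in 46 of those that fell the Aa mean was below 4. The size of these changes is less certain than their direction, since the values near 2 to 3 are the floor of the array. OIT3 read 7.30, 6.05 and 6.95 with Aa against 2.41, 2.41 and 2.42, and LCT, the intestinal enzyme lactase, 7.11, 5.99 and 7.15 against 2.44, 2.42 and 2.44. In both the control arrays sat at the floor and Aa replicate 2 was the lowest Aa array. LINC01963, a long noncoding RNA, rose by 4.14, ANKRD18A by 3.94, the orphan transporter SLC6A16 by 3.92 and CFAP251, a protein of cilia and flagella, by 3.88. In the other direction IFI35, an interferon-induced gene, read 3.61, 4.54 and 4.04 with Aa against 8.06, 8.31 and 8.35. Its Aa mean of 4.06 lay just above the limit, so it is not among the 46. NANOS1, an RNA-binding repressor of translation, fell by 4.03, NLGN1, a synaptic adhesion protein, by 3.80, and ULK4, a kinase of the ULK family, by 3.32. MPI, which links glycolysis with mannose metabolism, fell by 3.31, NFE2L3, a relative of NRF2, by 3.12, and TDRKH, a protein of germ cell small RNA processing, by 3.08.

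The large movers had the same sign in each replicate pair, as their selection requires, with pair 2 often the smallest. All 2494 called genes had the same sign in 3 of 3 pairs. In 2469 of them the groups did not overlap, which alone fixes that sign, as it does in 40.5% of all genes tested. Over all genes tested the slope of pair 2 on the mean of the others was 0.65, against 1.06 for pairs 1 and 3. Pair 2 gave the smallest change in 1526 of the 2494 called genes (61.2%). The median absolute change of the called genes was 0.78 in pair 1, 0.58 in pair 2 and 0.77 in pair 3. Without Aa replicate 2, 2552 genes were called, 1183 up and 1369 down.

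**Figure D3:**
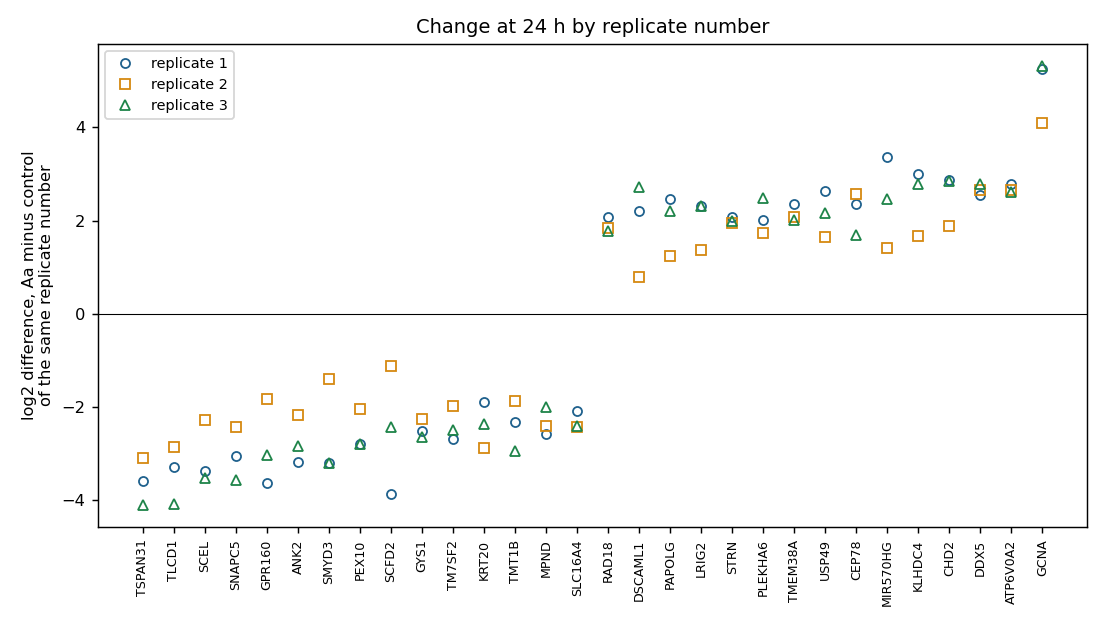
Log2 difference between the Aa and the control array of the same replicate number at 24 h, for the 15 largest falls (left) and the 15 largest rises (right) with a clear signal in both groups. Each symbol is 1 pair. The sign is shared by the 3 pairs in every gene, which follows from choosing genes without overlap of arrays. In many genes, such as SCFD2, the square of pair 2 lies nearest to 0.

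Cell cycle genes split by phase. Genes of the G1/S step and of DNA replication rose more often than all genes tested, and genes of mitosis fell more often. Of 23 G1/S cyclin and E2F genes 7 rose and 2 fell, with a median of 0.21, and of 25 origin licensing genes 10 rose and none fell, with a median of 0.23. Of 30 genes of the replication fork and of deoxynucleotide supply 6 rose and 1 fell, with a median of 0.15. In comparison 10.3% of all genes rose and 12.8% fell, with a median of -0.02. With the block, 12 licensing genes rose and 3 fell, 10 fork genes rose and 4 fell, and 10 G1/S genes rose and 3 fell. Of the fork list 23.3% were called in either direction, against 23.1% of all genes. Without probe sets of shared sequence 3 of 24 fork genes rose and none fell, and 7 of 18 G1/S genes rose and none fell. In that setting 1085 of 7933 genes rose, so the fork genes no longer rose more often than all genes. The smaller rises depended on single arrays: without Aa replicate 3 the licensing count was 3, and without Aa replicate 1 the fork count was 2.

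E2F2, an activating E2F factor, led the group. It read 9.45, 9.03 and 9.44 with Aa and 7.50, 7.60 and 7.27 in controls, groups that lay well apart (1.85, SE 0.17, adjusted p = 8.01e-05). CDC25A, the phosphatase that activates CDK2, read 9.67, 9.49 and 9.71 against 8.13, 8.16 and 8.35 (1.41, SE 0.17, adjusted p = 0.000375). All 3 of its probe sets and both of those for E2F2 read higher with Aa. E2F8 and E2F7, the repressor E2F factors that are themselves E2F targets, rose by 0.83 (SE 0.12) and 0.74 (SE 0.11). CDT1, which loads the replicative helicase on origins, read 11.45, 10.74 and 11.24 against 10.17, 9.82 and 9.89 (1.18, SE 0.20, adjusted p = 0.00205). The origin recognition subunit ORC6 rose by 0.64 and the kinase CDC7, which fires origins, by 0.43. POLD3, a subunit of DNA polymerase delta, rose by 0.57 and the sliding clamp PCNA by 0.36. POLA2, a subunit of the primase complex, went the other way, with 7.08, 7.38 and 7.63 against 8.42, 8.79 and 8.80 (-1.31, SE 0.20, adjusted p = 0.00141).

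Genes that drive and carry out mitosis were more often lower than higher with Aa at 24 h. Of 18 mitotic entry genes 7 fell and 1 rose (median -0.30), and of 45 genes of mitotic kinesins, kinetochore and spindle 14 fell and 1 rose (median -0.29). With the block, 9 entry genes fell and 5 rose, and 21 of the kinesin list fell and 3 rose. In that fit 22.8% of all genes fell and 18.5% rose, so entry genes were called more often in both directions. Without Aa replicate 3, 2 entry genes and 9 of the kinesin list fell. Without probe sets of shared sequence 2 of 12 entry genes fell and 1 rose, and CCNB1 read -0.33 (adjusted p = 0.122). KIF20A, a kinesin of cytokinesis, read 9.64, 9.94 and 9.43 with Aa against 10.80, 10.94 and 11.06 (-1.26, SE 0.13, adjusted p = 0.000152). DLGAP5, which stabilises kinetochore fibres, read 10.71, 10.73 and 10.21 against 11.58, 11.63 and 11.71 (-1.09, SE 0.14, adjusted p = 0.00044). CCNB2, a cyclin partner of CDK1, read 10.76, 11.20 and 10.59 against 11.77, 11.95 and 11.81 (-1.0, SE 0.14, adjusted p = 0.000875). In all 3 genes every Aa array was below every control array. CCNB1, the main mitotic cyclin, fell by 0.86 (SE 0.13), CENPE, a kinetochore motor, by 0.96 (SE 0.13) and ASPM, a spindle pole protein, by 0.61 (SE 0.11). CDK1, the kinase these cyclins activate, was the 1 entry gene that rose (0.43, SE 0.11, adjusted p = 0.0183). That call was lost without Aa replicate 1 (adjusted p = 0.0723), control replicate 1 (0.0708) or control replicate 2 (0.0577), in a range of 0.00652 to 0.432 over the alternatives.

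Promoters of 2 genes of each group are shown to illustrate the sequence elements that are frequent in it. They are those of smallest p among the G1/S and replication genes that rose with an E2F motif in the window, and among the mitosis genes that fell with a CHR in it, so they were chosen for the motif. KIF20A, the mitosis gene with the largest fall, is not among them. The windows are the 250 bases before the start of the gene in the RefSeq annotation of GRCh38.p14, written 5′ to 3′ on the strand of the gene. Capitals mark the E2F motif (TTTCCCGC, TTTCGCGC, TTTGCCGC or TTTGGCGC) in E2F2 and CDC25A, and the CHR (TTTGAA or TTCGAA) in DLGAP5 and CCNB2. Both strands were searched, so a match can appear as its reverse complement, and the motifs do not overlap in these windows.
E2F2, chr1:23531234-23531483, minus strand: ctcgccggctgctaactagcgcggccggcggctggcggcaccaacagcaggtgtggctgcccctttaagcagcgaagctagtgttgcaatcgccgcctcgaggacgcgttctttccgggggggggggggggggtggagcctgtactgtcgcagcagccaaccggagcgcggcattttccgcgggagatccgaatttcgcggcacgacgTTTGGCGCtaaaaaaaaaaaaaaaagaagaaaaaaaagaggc
CDC25A, chr3:48188418-48188667, minus strand: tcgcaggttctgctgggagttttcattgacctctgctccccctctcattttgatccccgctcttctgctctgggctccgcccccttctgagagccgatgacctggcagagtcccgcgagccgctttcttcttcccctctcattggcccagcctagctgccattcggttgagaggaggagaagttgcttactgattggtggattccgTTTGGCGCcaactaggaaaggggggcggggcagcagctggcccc
DLGAP5, chr14:55191586-55191835, minus strand: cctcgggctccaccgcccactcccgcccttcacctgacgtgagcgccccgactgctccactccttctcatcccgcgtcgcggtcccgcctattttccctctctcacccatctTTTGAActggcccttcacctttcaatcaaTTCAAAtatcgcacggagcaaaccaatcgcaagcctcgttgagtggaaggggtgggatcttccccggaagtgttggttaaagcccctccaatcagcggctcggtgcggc
CCNB2, chr15:59104896-59105145, plus strand: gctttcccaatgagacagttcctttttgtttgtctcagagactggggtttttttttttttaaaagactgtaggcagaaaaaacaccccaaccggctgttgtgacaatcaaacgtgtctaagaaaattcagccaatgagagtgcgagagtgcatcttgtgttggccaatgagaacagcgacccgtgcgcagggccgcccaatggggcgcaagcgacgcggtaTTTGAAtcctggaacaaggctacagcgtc

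The E2F motif began 42 bases before the start of E2F2 and 44 bases before that of CDC25A. In DLGAP5 the CHR letters began 138 and 109 bases before the start, the second as the reverse complement, and in CCNB2 29 bases before it. Of the G1/S and replication genes with a promoter in the RefSeq table, 29.2% (19 of 65) held the E2F motif, against 4.73% of the promoters of genes tested and 2.79% of all 27305 promoters. The share was 25% (5 of 20) among those of the group that rose, so the motif was not more frequent in them than in the group. Of the mitosis genes 52.8% (28 of 53) held the CHR and 73.6% CCAAT, against 9.46% and 35.8% of genes tested and 14.6% and 33% of all promoters. Among the mitosis genes that fell the shares were 36.8% (7 of 19) and 68.4%. Over all genes that rose 7.73% held the E2F motif, and 3.82% of those that fell. A match describes the letters of the window and does not show binding.

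**Figure D4:**
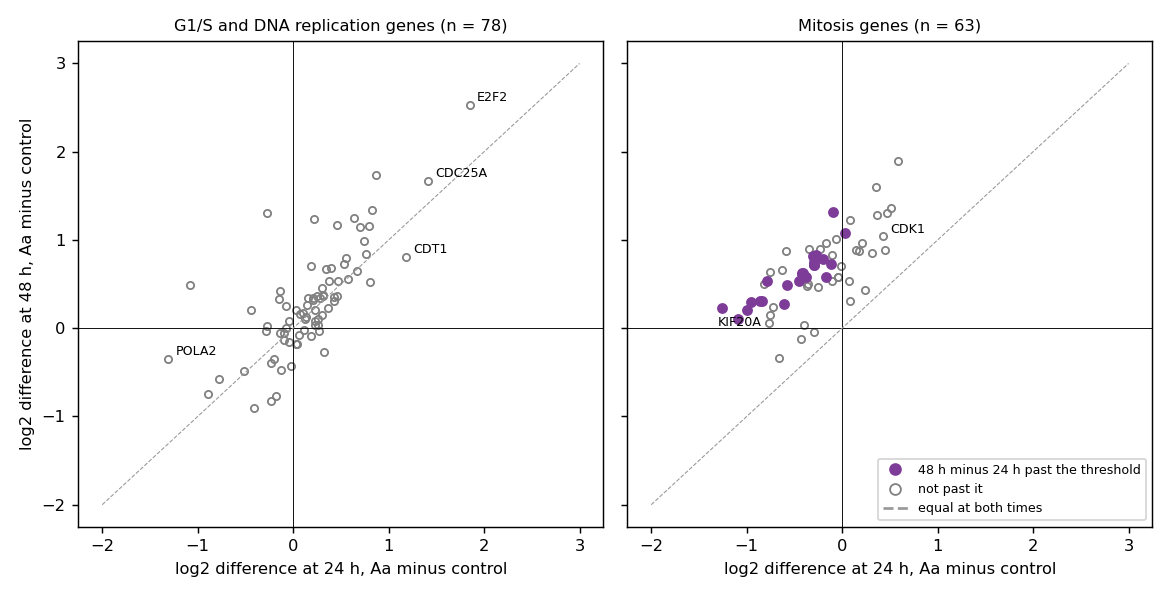
Log2 difference between Aa and control at 24 h (x axis) and at 48 h (y axis) for 78 G1/S and replication genes (left) and 63 mitosis genes (right), 1 point per gene. The dashed line marks equal differences, and filled points are genes whose difference between times passed the threshold; most mitosis genes lie left of 0 at 24 h and above 0 at 48 h, while E2F2 and CDC25A are high at both times.

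Of 7 genes listed as cyclin-dependent kinase inhibitors 2 rose, CDKN1A and CDKN1C, and 1 fell, CDKN3 (3 and 1 with the block). That is 42.9% called, against 23.1% of all genes, with a median of 0.56. CDKN1C rose by 0.84 (SE 0.26, adjusted p = 0.0358), a call lost without any 1 of 4 arrays, such as Aa replicate 1 (adjusted p = 0.134). CDKN1A, which encodes p21, a p53 target that stops CDK2, read 10.79, 10.66 and 10.66 with Aa against 9.51, 9.83 and 9.66. The groups lay apart (1.03, SE 0.22, adjusted p = 0.00716). CDKN3, a phosphatase that acts on CDKs and is expressed with the mitosis genes, read 10.80, 11.03 and 10.75 against 11.63, 11.72 and 11.96 (-0.92, SE 0.11, adjusted p = 0.000417).

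Targets of p53 did not move one way. Of 26 tested 4 rose and 5 fell, with a median of 0.07 (4 and 7 with the block). TP53I3, a quinone oxidoreductase induced by p53, read 6.70, 6.60 and 6.72 with Aa and 8.78, 8.84 and 9.07 in controls. This fall of 2.23 (SE 0.15, adjusted p = 1.41e-05) left a wide gap between the groups, while CDKN1A of the same list rose. PLK2, a kinase of the stress response, fell by 0.90 (SE 0.15), and AEN, a nuclease of apoptosis, rose by 0.57 (SE 0.12). Without control replicate 3, 2 of the list rose. The share of p53 targets called was 34.6%, against 23.1% of all genes.

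Repair genes were called often and in both directions. Of 28 Fanconi and homologous recombination genes 10 rose and 5 fell, so that 53.6% were called against 23.1% of all genes, with a median of 0.07. With the block 13 rose and 6 fell. Without Aa replicate 3, 5 of them rose, and without probe sets of shared sequence 8 of 17 rose and 1 fell. BLM, a helicase that resolves recombination intermediates, read 8.84, 8.89 and 9.00 with Aa against 7.82, 8.24 and 8.11 (0.85, SE 0.15, adjusted p = 0.00286). RAD54L, a DNA translocase of homologous recombination, fell by 0.97 (SE 0.14), and MUS81, a nuclease for branched DNA, by 1.07 (SE 0.16). In both the Aa arrays lay below all controls. FANCF, an adaptor of the Fanconi core complex, fell by 0.87 (SE 0.12) on the brightest of its probe sets, while the other read 0.07.

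Of 24 nucleotide excision repair genes 3 rose and 6 fell (median -0.03; 5 and 7 with the block), and without Aa replicate 1, 1 rose. The share of this list called was 37.5%, against 23.1% of all genes. ERCC4 and ERCC1 encode the partners of a single nuclease that cuts 5′ of a lesion. ERCC4 read 7.49, 6.49 and 6.93 with Aa and 5.55, 6.04 and 5.32 in controls, a rise of 1.34 (SE 0.25, adjusted p = 0.00378). ERCC1 read 8.02, 7.87 and 8.06 against 9.46, 9.07 and 9.31, a fall of 1.29 (SE 0.12, adjusted p = 8.59e-05), and a second probe set fell by 1.27, but the third rose by 0.94, so no single direction can be given for ERCC1. ERCC5, the nuclease of the 3′ side, fell by 0.52 (SE 0.10). ERCC2, a helicase of TFIIH, fell by 1.28 (SE 0.26) on the brightest of its probe sets, and its other probe set read 0.43.

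Translesion and checkpoint genes were called in both directions but at shares near that of all genes, 26.7% and 21.1% against 23.1%. In translesion synthesis 3 of 15 rose and 1 fell (median 0.18; 5 and 1 with the block). POLQ, the polymerase of end joining by short homologies, read 9.76, 9.45 and 9.76 against 8.17, 8.47 and 8.48 (1.28, SE 0.14, adjusted p = 0.00022). POLI, a Y-family polymerase, fell by 1.34 (SE 0.29). Among 19 checkpoint kinases and mediators 2 rose and 2 fell (median 0.12, or 5 up and 3 down with the block), and without Aa replicate 1, 1 rose. HUS1, a subunit of the checkpoint clamp, read 6.17, 6.71 and 6.84 with Aa against 7.90, 7.93 and 8.15 (-1.42, SE 0.21, adjusted p = 0.00127). RNF168, a ubiquitin ligase at double-strand breaks, rose by 0.58 (SE 0.13).

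Transcription factors of the early response were divided. Immediate early genes were called at 26.3% and EGF receptor and ERK feedback genes at 11.8%, against 23.1% of all genes. Of 19 immediate early genes 3 rose and 2 fell (median 0.21; 6 rose with the block and without Aa replicate 2, and 1 fell without control replicate 1). EGR1, induced by growth factors through ERK, read 10.11, 10.71 and 10.27 with Aa and 11.62, 11.85 and 11.83 in controls, a fall of 1.40 (SE 0.25, adjusted p = 0.00305). KLF6 rose by 0.70 (SE 0.10) on its brightest probe set, with 2 of 4 reading lower, and FOSL2, an AP-1 subunit, by 0.71 (SE 0.14). MYC fell by 0.56 (SE 0.14), a call lost without control replicate 1 (adjusted p = 0.058, range 0.00139 to 0.103 over the alternatives). In the EGF receptor and ERK feedback list 1 of 17 rose and 1 fell (median -0.01, 4 up with the block); the rise was lost without Aa replicate 2 and the fall without control replicate 1.

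The interferon and matrix lists were called in both directions, and the inflammatory list held few calls. Their shares called were 36%, 25% and 10.5% in that order, against 23.1% of all genes. Of 19 NF-kB and secreted inflammatory genes 2 rose and none fell (median 0.12; 3 and 1 with the block), and without Aa replicate 1 none rose. NFKBIA, the inhibitor that NF-kB induces, rose by 0.59 (SE 0.14), a call lost without Aa replicate 1 (adjusted p = 0.0503, range 0.00149 to 0.162). Among 25 interferon-stimulated genes 6 rose and 3 fell (median -0.01; 9 and 7 with the block). DTX3L, a ubiquitin ligase, rose by 0.50 (SE 0.10) and TAP1, the peptide transporter of antigen presentation, by 0.56 (SE 0.13), whereas IFI35 had the largest fall of all genes tested. Without Aa replicate 1 the count of rises was 3, and without control replicate 1 that of falls was 1. Without probe sets of shared sequence 3 of 15 rose and 1 fell. Of 28 TGF-beta and matrix genes 2 rose and 5 fell (median -0.14; 3 and 8 with the block), and without Aa replicate 1 none rose and without control replicate 1 only 2 fell. CCN2, a matricellular target of TGF-beta and YAP, read 8.83, 8.36 and 9.11 against 10.04, 9.43 and 9.80 (-0.99, SE 0.21, adjusted p = 0.00751). TGFB2, a TGF-beta ligand, fell by 0.78 (SE 0.17) on the brightest of its probe sets, and the other probe sets read -1.28 and -1.19 without passing the threshold.

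Splicing factors leaned upward on their brightest probe sets. Of the list 24.4% were called, against 23.1% of all genes, of which 10.3% rose and 12.8% fell. Of 41 splicing factors 9 rose and 1 fell, with a median of 0.13, and 33 of 41 were positive (14 up and 2 down with the block). SRSF6, a splicing regulator of the SR family, read 12.39, 12.15 and 12.13 with Aa against 11.13, 10.98 and 11.11 (1.15, SE 0.12, adjusted p = 0.00017) on its brightest probe set, while the other read -0.06. SRSF10, of the same family, rose by 0.79 (SE 0.12) and all 5 of its probe sets were higher. SF3A3, of the U2 particle, rose by 0.60 and TRA2B, a splicing activator, by 0.41. The rises numbered 6 without Aa replicate 3, and 4 when the probe sets of each gene were averaged. With averaging 1115 of all 10791 genes rose, so the share of rises in the list was then near that of all genes.

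In the list of transcription elongation and RNA polymerase II, 4 of 34 rose and 3 fell (median 0.05; 8 and 5 with the block). CCNT1, the cyclin of the elongation kinase P-TEFb, read 10.72, 10.33 and 10.70 against 9.60, 9.75 and 9.67 (0.91, SE 0.12, adjusted p = 0.000648). POLR2A, the catalytic subunit of the polymerase, rose by 0.67 (SE 0.16). The small subunits POLR2L (-1.26, SE 0.25) and POLR2I (-0.44, SE 0.09) fell. Without Aa replicate 1, 2 genes of this list rose and 2 fell. The share called was 20.6%, against 23.1% of all genes.

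Zinc finger genes rose more often than other genes. Of 333 genes with a ZNF symbol 76 rose (22.8%) and 14 fell (4.2%), with a median of 0.22, against 10.3%, 12.8% and -0.02 over all genes. Quantile normalisation and median centring left the median at 0.22 and 0.24, and with the block 121 rose and 24 fell. The related ZBTB, ZSCAN and ZKSCAN genes numbered 52, of which 11 rose and 4 fell (median 0.19). Of 40 genes with a USP symbol 11 rose and 1 fell (median 0.14), or 11 and 4 with the block. TMEM genes, named only for a predicted membrane span, leaned the other way, with 8 rises and 27 falls among 136 (median -0.13; 17 and 46 with the block). These families were singled out after their values had been seen.

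Cholesterol synthesis and uptake was the metabolic list with the largest share of falls. Of 20 genes tested 9 fell and none rose, 19 of 20 read lower with Aa, and the median was -0.52; 16 fell with the block. Besides TM7SF2, which read 6.01, 6.30 and 5.81 with Aa against 8.69, 8.28 and 8.31, SQLE, the rate-controlling squalene epoxidase, gave 11.63, 11.89 and 11.67 against 12.31, 12.34 and 12.50 (-0.65, SE 0.09, adjusted p = 0.000988). Neither overlapped between groups. All 4 probe sets of SQLE were lower. ACAT2, the first enzyme of the pathway, fell by 0.93 (SE 0.18). SC5D, a late enzyme, fell by 1.07 (SE 0.13) on the brightest of its probe sets, while the other read 1.02, a rise. With single arrays left out, 7 to 12 of the list fell. Without probe sets of shared sequence, 5 of 14 fell and 1, SC5D, rose.

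Fatty acid genes were called about as often as all genes, 23.1% for synthesis and 23.8% for oxidation against 23.1%. Of 13 fatty acid synthesis genes 1 rose and 2 fell (median -0.18; 5 fell with the block and 1 without Aa replicate 2). ACACB, the mitochondrial acetyl-CoA carboxylase, read 8.45, 8.30 and 7.93 with Aa against 6.65, 7.21 and 6.35 (1.49, SE 0.24, adjusted p = 0.00167), and all 4 of its probe sets were higher. Of 21 fatty acid oxidation genes 2 rose and 3 fell (median -0.06; 4 and 6 with the block). ETFDH, which passes electrons from this pathway to ubiquinone, fell by 0.86 (SE 0.10) and ECI1, an isomerase of the pathway, by 1.25 (SE 0.25). Without control replicate 1 none of the oxidation list rose, and without probe sets of shared sequence 1 of 16 rose and 1 fell.

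Of 54 oxidative phosphorylation subunits 4 fell and none rose (median -0.08; 11 fell with the block), with 1 without Aa replicate 1 and 7 without Aa replicate 2. NDUFA3, of complex I, read 10.32, 10.44 and 10.45 against 11.06, 11.06 and 10.83 (-0.58, SE 0.10, adjusted p = 0.00291). Of 20 glycolysis genes 1 rose and 1 fell (median -0.01; 1 and 3 with the block): PFKFB4, which sets the level of the activator of phosphofructokinase (1.18, SE 0.25), and PFKM, a phosphofructokinase (-0.67, SE 0.12). Of 17 hypoxia targets 3 rose and 4 fell (median -0.11; 3 and 6 with the block). VEGFA, the angiogenic growth factor, rose by 0.57 (SE 0.12) and 0.58 on 2 of its 4 probe sets and read 0.50 and 0.49 on the others, and P4HA1, a collagen hydroxylase, fell by 0.72 (SE 0.14). Without Aa replicate 3, 1 hypoxia target fell. The share called was 7.41% for oxidative phosphorylation, 10% for glycolysis and 41.2% for hypoxia targets, against 23.1% of all genes.

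Stress pathways moved little as groups. Of 23 ATF4 targets 5 rose and 1 fell (median 0.13; 8 and 2 with the block). STC2, a secreted glycoprotein of the stress response, read 7.17, 6.72 and 6.92 with Aa against 5.48, 5.33 and 5.75 (1.41, SE 0.25, adjusted p = 0.00311). ATF4 itself rose by 0.59 (SE 0.12) and CEBPG, a partner of ATF4, by 1.07 (SE 0.13) on its brightest probe set, while the other read -0.31. Of 20 ER chaperone and unfolded protein genes 1 rose and 2 fell (median -0.17; 2 and 6 with the block). Without Aa replicate 1 none rose, and without Aa replicate 3, 1 fell. HSPA5, the main chaperone of the ER, read 12.23, 12.21 and 12.53 against 12.99, 12.82 and 13.42 (-0.75, SE 0.17, adjusted p = 0.00962) on its brightest probe set, but rose by 1.10 on the dimmer one.

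Of 21 NRF2 targets 3 rose and none fell (median 0.10; 7 and 3 with the block), among them the thioredoxin reductase TXNRD1 (0.51, SE 0.10). ABCC3, a transporter of conjugated organic anions, rose by 0.89 (SE 0.15) on its brightest probe set, and of its 5 probe sets 1 fell by 0.79. Of 16 heat shock genes 1 rose and 2 fell (median -0.02; 2 and 3 with the block), 1 fell without Aa replicate 2, and without probe sets of shared sequence 3 of 9 rose and none fell. DNAJB6, a co-chaperone, read 9.88, 9.22 and 9.57 against 8.52, 8.41 and 8.65 (1.04, SE 0.16, adjusted p = 0.00162). Of 9 metallothionein genes and their regulators 1 rose and none fell (median -0.05; 2 and 1 with the block). Among 20 xenobiotic metabolism genes 1 rose and 2 fell (median -0.06; 2 and 4 with the block), and among 22 genes of the BCL2 family and apoptosis 1 rose and 2 fell (median -0.11; 3 and 5 with the block). Without Aa replicate 1 none of these last 3 lists held a called gene. The shares called were 14.3% for NRF2 targets, 18.8% for heat shock genes and 11.1% for metallothioneins. They were 15% for xenobiotic metabolism and 13.6% for the BCL2 list, against 23.1% of all genes.

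Lysosome and autophagy genes were called more often than all genes, 35.7% against 23.1%. Among 28 there were 4 rises and 6 falls (median -0.13), or 7 and 8 with the block. GLA, the lysosomal enzyme that is missing in Fabry disease, read 10.33, 10.73 and 10.57 with Aa against 11.44, 11.60 and 11.45 (-0.95, SE 0.12, adjusted p = 0.000451). ATG5, which conjugates the autophagy protein LC3 to membranes, fell by 0.61 (SE 0.10) on the brightest of its probe sets, but of the other probe sets 1 fell by 0.60 and 1 rose by 0.44. Without Aa replicate 1, 1 gene of the list rose.

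Housekeeping lists of high signal changed little. None of 41 cytosolic ribosomal protein genes was called by limma, none had an unadjusted p under 0.05, and their differences ran from -0.13 to 0.09 (median 0.03). Dimmer probe sets could differ: RPL37 read -0.13 on its brightest and 1.88 to 3.37 on the other 3, and without probe sets of shared sequence 3 of 18 ribosomal protein genes rose and 1 fell. Of 27 proteasome subunits 1 fell, PSMD4, a ubiquitin receptor (-0.66, SE 0.10, adjusted p = 0.00109), and none rose (median -0.01; 3 fell and 1 rose with the block). The share of called genes was lower at high signal in general. Above a mean of 12, 3.95% of genes rose and 4.46% fell, against 11.6% and 14.9% between 6 and 8.

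**Figure D5:**
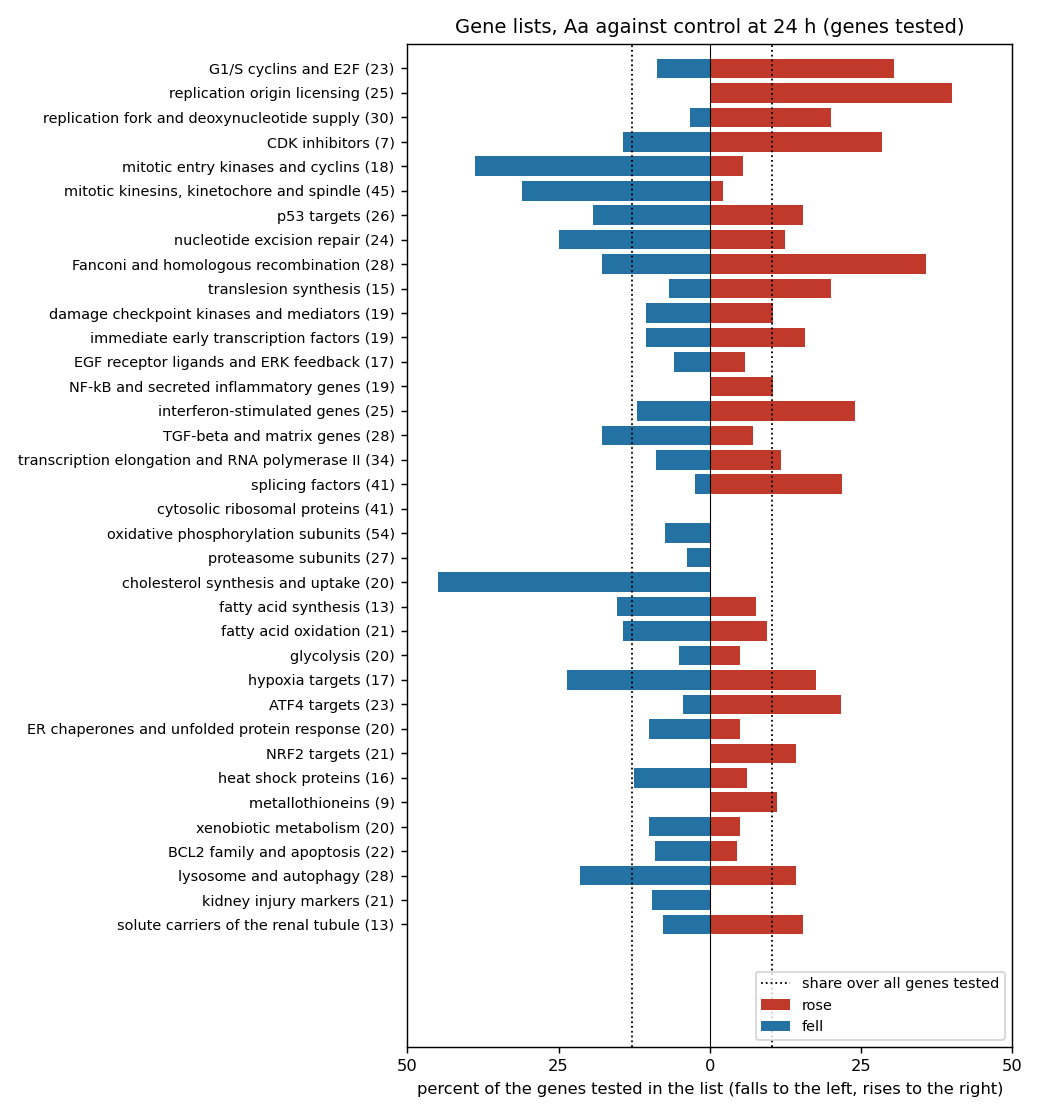
Percent of the tested genes of each of 36 gene lists that rose (red, to the right) or fell (blue, to the left) at 24 h, with the number tested in brackets. Dotted lines give the shares over all 10791 genes tested, 10.3% and 12.8%; licensing genes (40% called, all up) and cholesterol synthesis and uptake genes (45% called, all down) reach far past them.

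Kidney injury markers showed few calls, 9.52% against 23.1% of all genes. Renal solute carriers were called as often as all genes, at 23.1%. Of 21 kidney injury markers 2 fell, KRT20 and KRT19, and none rose (median -0.16; 3 fell with the block and 1 without Aa replicate 1). KRT19, a keratin of simple epithelia, read 11.85, 11.82 and 11.80 with Aa against 12.47, 12.49 and 12.63 (-0.71, SE 0.17, adjusted p = 0.0141), and lost its call without control replicate 3 (adjusted p = 0.053, range 0.00291 to 0.143). Of 13 renal solute carriers 2 rose and 1, SLC16A4, fell (median 0.08; 2 and 3 with the block, and 1 rise without Aa replicate 1). None of the 4 readable proximal tubule markers was called by limma and 1 had an unadjusted p under 0.05, SLC3A1, an amino acid transport subunit, which read 7.69, 7.95 and 6.82 against 8.81, 8.98 and 8.35 (-1.23, SE 0.48, adjusted p = 0.091). These readings are of the brightest probe sets. On dimmer ones PAX8 rose by 1.22, and CDH6 fell by 1.01 on 1 and rose by 0.77 on another, so no single direction can be given for CDH6. With the block 2 of the 4 readable proximal tubule markers fell, as did 3 epithelial and 2 fibroblast markers. In that fit 1 podocyte and 1 distal nephron marker rose. The summed log2 level of the 12 proximal tubule markers was 58.5 to 60.1 on the Aa arrays and 61.6 to 61.9 on the controls. That of the 9 epithelial markers was 99.6 to 100.2 and 101.1 to 102.8. The 8 fibroblast markers summed to 42.4 to 43.5 and 44 to 45.2, and COL1A1 was the 1 that fell (-0.85, SE 0.24). Its call was lost without Aa replicate 3 (adjusted p = 0.0994), control replicate 1 (0.0958) or control replicate 2 (0.0747), in a range of 0.000672 to 0.138. Sums overlapped between groups for endothelium (21.6 to 22.1 and 21.9 to 22.2), leukocytes (13.8 to 14.2 and 13.9 to 14.1), podocytes (21.3 to 21.8 and 21.1 to 22.3) and distal nephron (38.2 to 39.7 and 37.2 to 38.8). The part of these shifts in the other results was not tested.

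Different probe sets of a gene could move apart. Of 1290 called genes with more than 1 probe set past the filter, 806 had all of them on the same side of 0. Over all genes 185 had at least 1 probe set that rose and 1 that fell. ATP6V0A2, a subunit of the vacuolar proton pump, was among the largest rises on its brightest probe set, with 8.97, 8.76 and 8.95 with Aa against 6.19, 6.11 and 6.34 (2.68, SE 0.15, adjusted p = 8.43e-06). Another of its 3 probe sets fell by 1.80 and the last read 1.07. ELOVL6, an elongase of fatty acid synthesis, fell by 1.74 (SE 0.17) on the brightest of its probe sets, rose by 1.69 on another and fell by 1.85 on the last. TCF3, a helix-loop-helix transcription factor, had probe sets at 1.39 and -1.49, and HSPA4, a heat shock protein, at 1.40 and -1.13. Probe sets of 1 gene can read different transcript ends or isoforms, and for these genes a single direction cannot be given.

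Gene span and probe set type went along with the direction. Of 331 genes that span at least 300 kb in the GRCh38.p14 annotation 10 rose (3.02%) and 91 fell (27.5%), with a median of -0.54. Of 2174 genes under 10 kb 151 rose (6.95%) and 393 fell (18.1%), with a median of -0.06, while between 30 and 100 kb 12.9% rose and 10.2% fell. Among the largest falls TSPAN31, TLCD1 and SNAPC5 are of the short kind and ANK2, SMYD3 and SCFD2 of the long kind. Of 8687 probe sets whose names mark a sequence shared with other transcripts 6.6% rose and 12.3% fell, and of 10936 others 14.3% rose and 10.7% fell. Without the shared ones 1085 genes rose and 945 fell.

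Most of the 24 h effect was also seen at 48 h, against separate control arrays. Of the 2494 called genes 1818 were called in the same direction at 48 h, 825 up and 993 down. Of all genes 37.8% were called at 48 h, 17.8% up and 20.1% down. In 18 the direction was opposite, and 658 were not called at 48 h. Few genes passed the test of the difference of the effects itself, 48 h minus 24 h: 89 of all genes tested (0.825%), 80 toward higher values, of which 40 were among those called at 24 h. The count was 1183 with the block (11%). It depended on single arrays, and was 0 without control replicate 2 of 24 h or control replicates 1 or 2 of 48 h, and 1 without control replicate 3 of 24 h or Aa replicate 1 of 48 h.

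Mitosis genes made up much of this difference. Of the 45 kinesin, kinetochore and spindle genes 20 passed it and of the 18 entry genes 4, all toward higher values at 48 h, and 33 and 14 of them rose at 48 h. KIF20A went from -1.26 at 24 h to 0.23 at 48 h (difference 1.49, adjusted p = 0.0179), CCNB2 from -1.0 to 0.21 (1.21, adjusted p = 0.0262) and CENPE from -0.96 to 0.30 (1.27, adjusted p = 0.0184). Control levels moved between the times as well, by -0.45 in KIF20A, -0.41 in CCNB2 and -0.63 in CENPE, none past the threshold. E2F2, in contrast, read 1.85 and 2.53 (difference 0.68, adjusted p = 0.225). Its controls moved by -1.06 between the times (limma, adjusted p = 0.0405), and its Aa means were 9.30 and 8.93. TP53I3 moved from -2.23 to -0.88 (difference 1.34, adjusted p = 0.0208) and ID2, an inhibitor of helix-loop-helix factors, from -0.77 to 0.98 (1.76, adjusted p = 0.0184). ENC1, an actin-binding protein, read 7.61, 7.25 and 7.26 with Aa against 7.22, 7.03 and 7.27 at 24 h, groups that overlapped, and its difference was 2.81 at 48 h. EDIL3, a matrix ligand of integrins, had fallen by 0.97 after 24 h and read -2.67 at the later time, and TMEM120A had fallen by 1.62 and then read -2.82. All of these calls of the difference fall under the dependence on single arrays given above.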

How the data were processed

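RNA of HK-2 cells was measured on 12 arrays of 54675 probe sets, 3 for each of 4 groups (Aa and control at 24 h and 48 h). The deposited table holds log2 values, which the authors made with GCRMA, per the submitters' processing notes; the sources used here give no version or settings. The values run from 0.82 to 16.25.

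Of the probe sets 41097 map to 1 gene symbol, 1801 to several and 11777 to none. Symbols were updated through RefSeq (GRCh38.p14), which also gave gene spans and promoters. Each gene took its probe set of highest mean, and genes with a mean under 4 were left out. Group means of the 12 arrays were fitted with limma 3.58.1 in R 4.3.3 (lmFit and eBayes), two-sided, with Benjamini-Hochberg adjustment over all 10791 genes and a threshold of 0.05. The scripts were tested on simulated data.

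Same-numbered arrays deviated together from their group means, with r of 0.35 to 0.62 in 18 pairs and of -0.49 to -0.01 in the 36 others. The pairing is read from the data. The fit without the replicate block was kept, and the counts of calls with the block are given beside those of the lists that it moved most.

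Named genes are the 15 largest rises and falls with no overlap of arrays and a mean of at least 5 in the lower group, the 6 largest rises and falls from or to a mean below 4, up to 4 of smallest p in each of 43 lists, and the 5 largest differences each way between 48 h and 24 h with all means at least 5. Other genes and families named were chosen after their values were seen. The comparison, the members and the lists were chosen with earlier results of these data known. Alternatives changed the filter, the normalisation, the choice of probe set, the variance model, the block and the arrays; a block fit without replicate 2 was added after seeing the data.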

Additional observations from a re-analysis of the deposited data

Results flagged for a closer look

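The Aa effect differed between 48 h and 24 h in 19 of the genes named here, by the limma test of the difference with Benjamini-Hochberg adjustment over all genes. Values are the 48 h effect minus the 24 h effect on the log2 scale. Of the cell division genes, KIF20A had 1.49, CENPE 1.27, CCNB2 1.21, DLGAP5 1.20, CCNB1 1.17, CDKN3 1.07, AURKA 1.07 and ASPM 0.89, and the mitotic kinase NEK2 had 1.61. The difference was 2.61 for ENC1, 2.08 for SERTAD1, 1.76 for ID2, 1.58 for GEM and 1.34 for TP53I3. It was negative for EDIL3 (-1.70), TMEM120A (-1.20), WASF3 (-0.94), ZSCAN31 (-0.94) and KIF13A (-0.91).

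A control probe set for 28S ribosomal RNA, which is no gene of the comparison, read 10.77, 10.86 and 11.26 with Aa and 8.90, 9.47 and 9.51 in controls. The difference was 1.67, and the groups did not overlap. A probe set for the 5′ part of the same RNA differed by 1.06, and one for its 3′ part by -0.01, at the floor on all 6 arrays. The 3 probe sets for 18S ribosomal RNA differed by 0.45, 0.86 and 0.55. Its part in the other results was not tested.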

How the results depend on the processing

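The count of genes called at 24 h, 2494, became 4457 with the replicate block, 3958 with the block and without replicate 2 (added after seeing the data), 4379 when each probe set was tested on its own, and 678 with a change of at least 2-fold. Leaving out replicates gave 536 to 2552. Other filters, normalisations and variance models gave 2030 to 2598, and the 6 arrays of 24 h alone 2178, or 3718 with the block. The count for the difference between 48 h and 24 h, 89, became 1183 with the replicate block, 445 with the block and without replicate 2, 57 with median centring and 48 without probe sets of shared sequence, and 0 to 255 when replicates were left out.

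Of 157 named genes that were called, 52 kept call and direction in every alternative run, and 104 lost the call in at least 1. Without probe sets of shared sequence the direction turned for FANCF (0.07), PARP9 (-0.51), RPL37 (3.37), SC5D (1.02), ABCC3 (-0.05) and HSPA4 (1.40). With the mean of a gene's probe sets it turned for RPL37 (2.01), NDUFS1 (0.24), HSPA5 (0.18), CFLAR (0.36) and ATG16L1 (-0.08). In these alternatives other probe sets enter the value. With 3 arrays per group, small changes and values near the floor of the array are the least certain.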

Other observations

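Other families chosen after their values were seen gave these counts at 24 h. Of 33 KDM, KMT and SETD genes, which write or erase histone methylation, 6 rose and 2 fell (median 0.13). Of 76 mitochondrial ribosomal protein genes 3 rose and 11 fell (median -0.07). None of 11 histone genes was called by limma, though their median was 0.45. Of 282 long noncoding RNA genes 14.2% rose and 12.4% fell, and of 107 transcribed pseudogenes 18 rose and 7 fell. These shares stand beside 10.3% and 12.8% over all genes tested.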
